A study of Mus musculus with 4 samples.

Results

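Fibroblast-like cells carrying the matrix genes Dpt and Mfap4 were described in 1 library of non-parenchymal mouse liver cells, where they numbered 201 of 2126 kept cells, a share of 9.45% (8.24 to 10.8). Members were selected on measured values. A member had at least 5 unique molecular identifiers (UMIs, each standing for 1 captured RNA molecule) of Dpt and Mfap4 together per 10000 UMIs, under 10 of the mesothelial genes Msln, Upk3b, Nkain4 and Lrrn4, and under 20 of the sinusoidal endothelial genes Clec4g, Stab2 and Ptprb. The library is the positive recovery library. It comes from mice with the genotype Col1a2-CreERT2 and a tdTomato reporter (written R27RtdTomato in its label, with another number in the label of each other group), in which an inducible Cre under Col1a2 control switches on a red fluorescent protein in collagen-producing cells. All groups of the study received a diet with 45% fat that lacked methionine and choline, with 0.1% L-methionine in the water, for 8 weeks. The other groups were the negative recovery fraction, the negative injury fraction and a positive injury fraction whose counts were not analysed here. Neither labels nor file headers give the age of the mice, the length of recovery, how many mice a library holds or how positive and negative cells were parted. The reporter's own transcript was not among the measured features. The share of members is that of a fraction labelled positive and not of whole liver.

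Fibroblasts build the connective tissue around vessels, ducts and the organ capsule. Stellate cells are the vitamin A-storing pericytes of the liver sinusoids, and the mesothelium is the epithelial-like sheet that covers the liver surface. All of these express collagen genes to some degree, and stellate cells and fibroblasts are regarded as the sources of the myofibroblasts that lay down scar in fatty liver injury. Dermatopontin, the product of Dpt, is a small matrix protein that binds decorin and aids collagen fibril assembly, and Mfap4 encodes a microfibril-associated glycoprotein found with elastic fibres.

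Members were described against 90 stellate cells, which had at least 15 UMIs of Lrat, Reln, Colec11 and Angptl6 per 10000, and 1374 mesothelial cells of the same library, with cells that met the rule of the members kept out of both. Levels are UMIs summed over the cells of a class per 1000000 UMIs (CPM), brackets hold 95% intervals (exact Poisson for levels, exact Clopper-Pearson for shares), and ratios are log2 with 10 CPM added to both levels. The intervals cover counting error only. With 1 library there is no replicate, so no difference was tested, and because members and both comparison classes were chosen from these counts, every gene level below is a description. The median depth was 11333 UMIs and 3622 genes in members, 10700 UMIs in stellate cells and 14898 UMIs in mesothelial cells. Members spanned 1034 to 50436 UMIs, and 12 of them had under 2000.

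The rule rested on Dpt in nearly every member. Dpt was counted in 193 members and Mfap4 in 157, with both in 149, Dpt alone in 44 and Mfap4 alone in 8. The sum of both genes had a median of 18.1 per 10000, quartiles of 11.9 and 27.5, and a highest value of 94.7. In 7 members the call rested on 1 UMI. The 8 members closest to the threshold lay between 5.03 and 5.63, and 12 cells just outside it lay between 4.01 and 4.93. The cells just inside had 3538 CPM of Col1a1 and 4714 CPM of Gsn, and those just outside 2919 CPM and 2118 CPM. Of the cells just outside, 4 of 12 reached the stellate minimum, against 0 of the 8 just inside. Another 24 kept cells reached the Dpt and Mfap4 threshold but exceeded the mesothelial limit, and 0 exceeded the sinusoidal limit. Scrublet, which scores barcodes that may hold a pair of cells, called 3 members, 0 stellate cells and 54 mesothelial cells, and these were kept in the values below. Of the members' barcodes, 1 also occurred in the negative injury library and 0 in the other libraries.

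The border towards stellate cells was also gradual. Among members the summed level of Lrat, Reln, Colec11 and Angptl6 was 0 in 56 cells, under 5 per 10000 in 46, from 5 to 15 in 58 and at least 15 in 41, with 23 members between 12 and 18. Its median was 4.76 in members and 83.3 in stellate cells, whose lowest value was 17.7. In the other direction, 19 of the 90 stellate cells held a Dpt or Mfap4 UMI, as did 114 of the mesothelial cells.

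**Figure D1:**
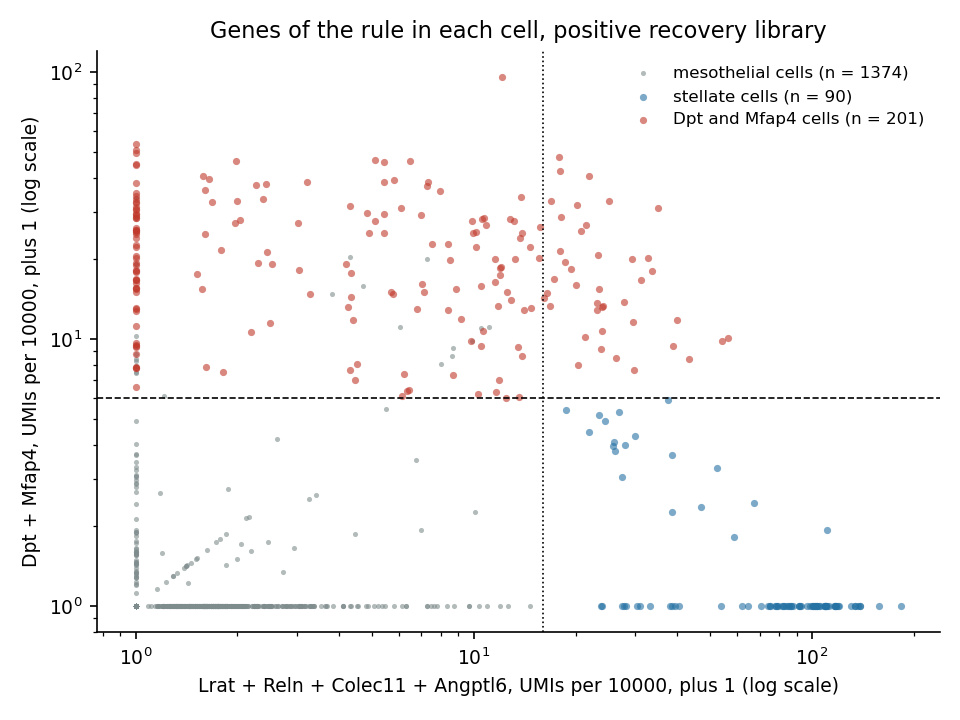
Each point is a cell, placed by its Dpt and Mfap4 level (vertical) and its level of the 4 stellate genes (horizontal), both in UMIs per 10000 plus 1 on log scales, with the thresholds of the members (dashed) and of stellate cells (dotted). The 41 members right of the dotted line carry both sets of genes, while most stellate cells lie along the bottom, with no Dpt or Mfap4 UMI.

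The fibroblast label was described with 7 markers. Besides Dpt and Mfap4, which made the rule, these were Lum (lumican, a collagen-binding proteoglycan), Gsn (the actin-severing protein gelsolin), Col1a1 (a chain of type I collagen), Cxcl12 (the chemokine that binds Cxcr4) and Tagln (transgelin, an actin-binding protein of contractile cells). All 7 were at least 2-fold higher in members than in mesothelial cells. Of them, 5 were at least 2-fold higher than in stellate cells, with Lum and Cxcl12 as the exceptions. Both counts include Dpt and Mfap4, which the rule placed there. Outside the rule, Gsn, Col1a1 and Tagln were at least 2-fold higher than in stellate cells. In single members the sum of all 7 ran from 5.45 to 591 per 10000, with a median of 167. The lowest value equals the Dpt and Mfap4 level of 1 member with 1834 UMIs, so markers beyond the rule were not counted in it. Dpt (chr1:164796644-164824266, GRCm38) stood at 1365 CPM (1319 to 1412) in members, 42.4 CPM (29.98 to 58.1) in stellate cells and 9.39 CPM (8.21 to 10.7) in mesothelial cells. Mfap4 (chr11:61485431-61488900) stood at 611 CPM (581 to 643), 18.95 CPM (11.04 to 30.3) and 4.53 CPM (3.72 to 5.46). These 2 genes carry the selection, so their distance from the other classes was fixed by it.

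Gsn (chr2:35256380-35307892) reached 5978 CPM (5882 to 6076) in members, 1238 CPM (1167 to 1314) in stellate cells and 169.8 CPM (165 to 175) in mesothelial cells, a log2 ratio of 2.26 and 5.06. Its quartiles over members were 31.8, 56.8 and 79.5 UMIs per 10000, and the median stellate cell had 4.55. Col1a1 (chr11:94936224-94953042) reached 3165 CPM (3095 to 3236) in members against 391 CPM (351 to 434) and 277 CPM (271 to 284), ratios of 2.98 and 3.47. The median member held 21.8 Col1a1 UMIs per 10000 and the median stellate cell 0.888. These 2 genes separated members from both classes in most cells, although the ranges of single cells overlapped.

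Lum (chr10:97565128-97572703) was at 2203 CPM (2145 to 2262) in members and 1323 CPM (1249 to 1401) in stellate cells, a ratio of 0.73, under the 2-fold limit. Mesothelial cells had 32.7 CPM (30.4 to 35.03). Cxcl12 (chr6:117168535-117181367) was the marker on the other side, at 2582 CPM (2519 to 2646) in members and 5009.7 CPM (4864 to 5158) in stellate cells (ratio -0.95), with 32.4 CPM (30.2 to 34.8) in mesothelial cells. Lum and Cxcl12 thus set members apart from mesothelial cells but were shared with stellate cells. Tagln (chr9:45929619-45936058) was uneven: its summed level of 1556 CPM (1508 to 1606) stood against 440.3 CPM (398 to 486) in stellate cells, while the medians of single cells were 2.43 and 1.65 per 10000.

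After each cell was thinned to 1000 UMIs, which none fell below, Col1a1 was seen in 82.1% (76.1 to 87.1) of members, 22.2% (14.1 to 32.2) of stellate cells and 19.3% (17.2 to 21.5) of mesothelial cells. Gsn was seen in 91.05% (86.2 to 94.6) of members and 45.6% (35.02 to 56.4) of stellate cells, and Tagln in 37.8% (31.1 to 44.9) and 23.3% (15.1 to 33.4). Lum was seen in 76.6% (70.1 to 82.3) of members and Cxcl12 in 73.6% (66.97 to 79.6). In the 52 lymphocytes of the library, a cell type that should lack these genes, the thinned shares were 0% (0 to 6.85) for Col1a1, 0% (0 to 6.85) for Tagln, 1.92% (0.0487 to 10.3) for Lum, 3.85% (0.469 to 13.2) for Cxcl12 and 5.77% (1.21 to 15.9) for Gsn. Without thinning the shares of members were 95.5% for Col1a1, 97.5% for Gsn, 96.02% for Lum, 96.02% for Cxcl12 and 64.2% for Tagln, and those of lymphocytes, whose median depth was 4966 UMIs against 11333, were 3.85%, 34.6%, 7.69%, 11.5% and 0%. Each marker was seen in a larger share of members than of lymphocytes at equal depth.

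**Figure D2:**
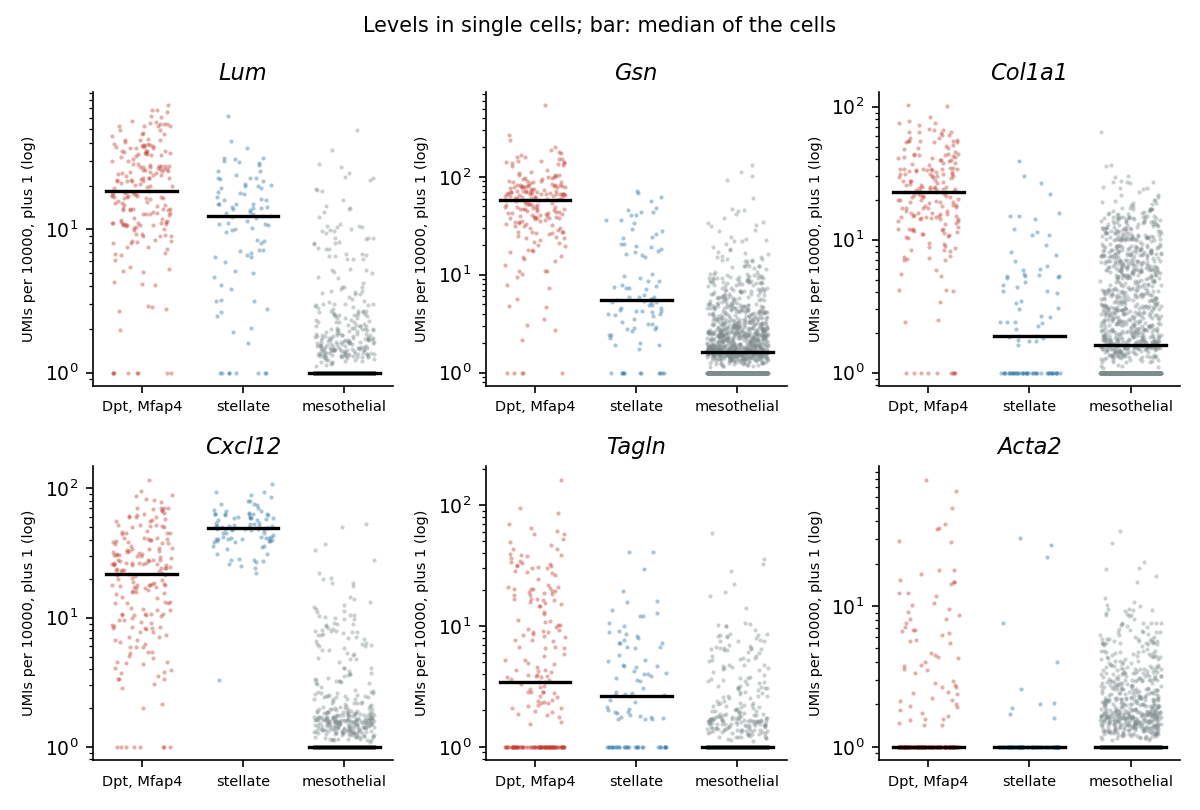
Each point is a cell, with its level of 6 genes in UMIs per 10000 plus 1 on a log scale, grouped into the Dpt and Mfap4 cells (201), stellate cells (90) and mesothelial cells (1374), and a bar at the median. Gsn and Col1a1 are shifted upward in members, Cxcl12 is highest in stellate cells, and Acta2 has its median at 0 in all 3 classes with a tail of members above.

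Across the 9401 genes at 10 CPM or more in members or stellate cells, 431 (4.58%) were at least 2-fold higher in members and 317 (3.37%) at least 2-fold lower. Against mesothelial cells, 879 of 9621 genes (9.14%) were higher and 741 (7.7%) lower. The median log2 ratio over all genes was 0.0074 against stellate and 0.065 against mesothelial cells. Of the 9024 genes at 10 CPM in both comparisons, 200 lay at least 2-fold above both classes and 27 at least 2-fold below both, 115 were below stellate but above mesothelial cells, and 55 were the reverse. Of the 200 genes above both, 144 were counted in at least 50 members, 15 in fewer than 20, and 19 came under 2-fold over stellate cells once the member with most UMIs of the gene was left out. Of the 90 stellate cells, 23 lay with members in cluster 6 (clusters are described below). A further 3 lay in cluster 15, 3 in cluster 9 and 1 each in clusters 8 and 12. Against the 59 stellate cells of cluster 11, which held no members, 659 genes were higher and 382 lower. The ratio of Col1a1 was then 5.04 and that of Acta2 5.14, in place of 2.98 and 2.65. In cluster 15, 2 of the stellate cells had Acta2 at 29.5 and 21.3 UMIs per 10000 and no Reln UMI. The part of such single stellate cells in the change of the Acta2 ratio was not tested. With the Dpt and Mfap4 minimum at 10, which moves cells between the classes, the ratio of Col1a1 was 2.05 and that of Acta2 2.09, and with the minimum at 3 that of Col1a1 was 3.90. As a mean of per-cell CPM the ratio of Acta2 was 1.58.

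The 12 genes with the largest distance above both classes were Dpt, Mfap4, Ltbp2, Col1a1, Dpep1, Cyp2e1, Acta2, Rgs7bp, Itgbl1, Pcolce2, Serpina3n and Gpx3. Ltbp2, which encodes a microfibril protein related to the TGF-beta-binding proteins, had 294 CPM (273 to 316) in members, 6.69 CPM (2.45 to 14.6) in stellate cells and 8.77 CPM (7.63 to 10.04) in mesothelial cells, and was counted in 122 members. Dpep1, a membrane dipeptidase, had 359 CPM (335 to 383), 36.8 CPM (25.3 to 51.7) and 3.16 CPM (2.49 to 3.95). Gpx3, the secreted glutathione peroxidase, had 964 CPM (925 to 1003), 182 CPM (155 to 212) and 37.4 CPM (34.96 to 39.9). These 3 were spread widely, with 4.40%, 3.83% and 4.32% of their UMIs in the member that held most.

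Itgbl1, a secreted protein with integrin-like repeats, stood at 109 CPM in members against 10.03 and 3.24 CPM. Rgs7bp, which anchors a regulator of G protein signalling, stood at 69.4 CPM against 3.34 and 0.998. Serpina3n, a secreted serine protease inhibitor, stood at 142 CPM against 15.6 and 19.8, in 64 members. Pcolce2, an enhancer of procollagen processing, had 0 UMIs in stellate cells and was at least 15.5-fold higher in members, taking 3 counts over the stellate class as the floor. It came from 27 members.

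Cyp2e1, an alcohol- and drug-oxidizing cytochrome known mainly from hepatocytes, stood at 123 CPM (109.7 to 137.8) in members, 7.80 CPM (3.14 to 16.1) in stellate cells and 1.91 CPM (1.40 to 2.55) in mesothelial cells, and was counted in 45 members. The hepatocyte transcript Alb, which leaks into many cells of a digested liver, stood at 45.6 CPM in members, 88.1 in stellate and 53.9 in mesothelial cells. The number of Cyp2e1 UMIs per Alb UMI was 2.70 in members, 0.0886 in stellate cells and 0.0355 in mesothelial cells. Of 10 hepatocyte genes, 7 reached 10 CPM and 0 of them were at least 2-fold higher in members than in stellate cells. Their summed level was 637 CPM in members, 629.8 in stellate cells and 1106 in mesothelial cells. A pair of hepatocyte transcripts outside that list differed between members in the same direction as Cyp2e1: Serpina1b stood at 197 CPM in the members of cluster 6 (described below) and 22.9 in those of cluster 8, and Ahsg at 45.2 and 1.35 CPM, with 42.1% of the Ahsg UMIs of cluster 6 in 1 cell. Among the members of cluster 15, Cyp2e1 stood at 169.6 CPM, against 184 in cluster 6 and 5.38 in cluster 8. The summed level of the 10 hepatocyte genes was 735 CPM in cluster 6, 554 in cluster 8 and 419 in cluster 15. The part of hepatocyte RNA in the Cyp2e1 level was not tested.

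The stellate program was present in members at a lower level. Of the 18 stellate genes, 0 were at least 2-fold higher and 14 at least 2-fold lower than in stellate cells, with a median log2 ratio of -2.41. Against mesothelial cells, 16 of 17 were higher and 0 lower, with a median of 2.67. Angptl6 (an angiopoietin-like secreted protein) stood at 26.2 CPM (20.3 to 33.4) in members and 1677 CPM (1593 to 1764) in stellate cells, Colec10 (a collectin) at 10.9 and 741 CPM, Rgs5 (a pericyte regulator of G protein signalling) at 37.1 and 1807 CPM, and Vipr1 (a receptor for vasoactive intestinal peptide) at 50.5 and 979 CPM. Of the Rgs5 UMIs, 39.1% lay in 1 member. Lrat, the enzyme that makes retinyl esters for vitamin A storage, stood at 133 CPM (119 to 148) in members, 991 CPM (927 to 1058) in stellate cells and 2.29 CPM (1.72 to 2.98) in mesothelial cells, and Reln (reelin) at 279 CPM (258 to 300.2), 1838 CPM (1751 to 1929) and 4.49 CPM (3.68 to 5.42). Lrat, Reln and Angptl6, together with Colec11, make the sum that defined the stellate cells, so their high level in that class was built into the choice. Mesothelial cells were kept separate from the stellate class, while members could reach its minimum, as 41 did. Part of the distance between members and mesothelial cells in the genes of this sum may therefore stem from the choice. The counts and medians of the stellate list include genes of this sum and were not taken without them. Colec10, Rgs5 and Vipr1 are not part of the sum. Without the 41 members at or above the stellate minimum, the ratio of Vipr1 to stellate cells was -4.89 in place of -4.03. That of Rgs5 was -6.09 in place of -5.27. The ratio of Reln was -3.44 in place of -2.68, but a lower value of Reln was built into that choice.

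The other stellate genes were shared at a like level. Cygb (cytoglobin) stood at 1156 CPM in members and 1116 in stellate cells, Bambi (a TGF-beta pseudoreceptor) at 468 and 332, Des (desmin) at 299.6 and 407, and Adamtsl2 (a microfibril-associated protein) at 545 and 394 CPM. Mesothelial cells had 344, 64.96, 26.2 and 4.99 CPM of these. Outside the list, the 10 genes furthest below stellate cells included Plvap (a diaphragm protein of small vessels), at 78.3 against 2094 CPM, Fcna (a ficolin), at 51.3 against 1211, Tmem56, at 58.5 against 1599 and Ntm (neurotrimin), at 0.404 against 109. Hhip, a hedgehog-binding protein of the list, stood at 3.63 against 146 CPM.

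A set of genes that earlier mouse studies tied to stellate cells near the central vein or near the portal tract was added after its values were seen. Of the genes tied to the central vein, Loxl1 (an elastin crosslinker) was higher in members than in stellate cells, at 453 against 120.4 CPM. Spon2 was at 194 against 105 CPM and Adamtsl2 at the levels above, both under 2-fold, and Rspo3 (a Wnt signalling enhancer) was lower, at 232 against 709 CPM. The genes tied to the portal tract stood lower or under 2-fold in members. Ngfr was at 50.1 against 187 CPM, Il34 at 20.2 against 103, Itgb3 at 1.21 against 60.2, and Igfbp3 at 261 against 457.

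**Figure D3:**
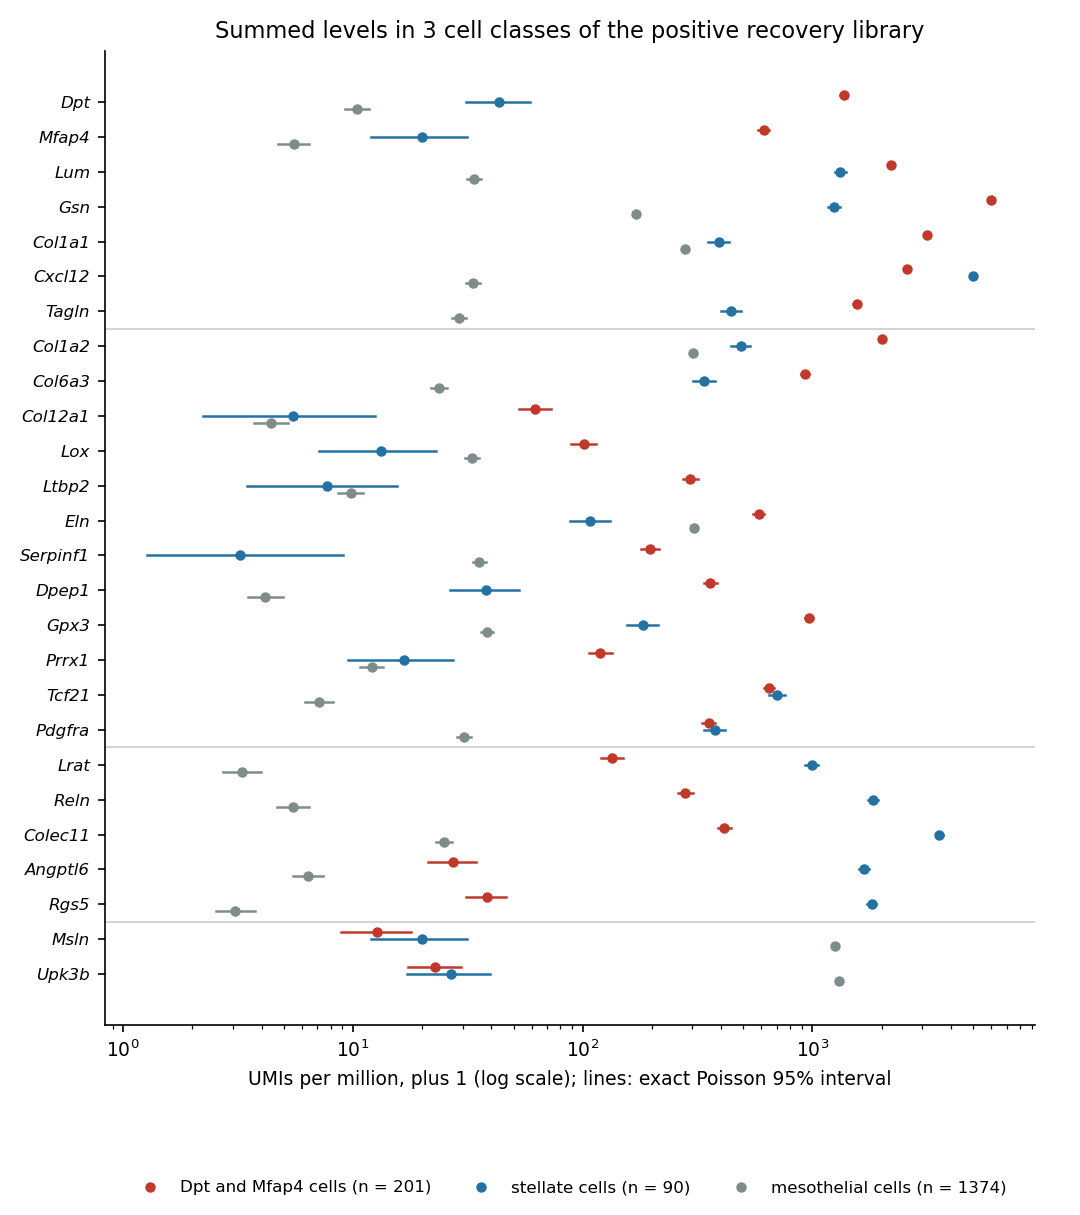
Summed levels of 26 genes in members (201 cells), stellate cells (90) and mesothelial cells (1374), in CPM plus 1 on a log scale, with exact Poisson 95% intervals as lines; grey rules separate markers, other genes, stellate genes and mesothelial genes. Col1a1, Gsn, Ltbp2 and Dpep1 lie to the right of both other classes in members, Tcf21 and Pdgfra lie beside stellate cells, and Angptl6 and Rgs5 lie far below them.

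Many fibrillar collagen genes stood above both classes. Of the 26 fibrillar collagen and processing genes, all of which reached 10 CPM, 12 were at least 2-fold higher and 1 at least 2-fold lower than in stellate cells, with a median log2 ratio of 0.85. Against mesothelial cells, 21 of 26 were higher and 0 lower, with a median of 1.42. Col1a2, the partner chain of Col1a1 and the gene that the reporter's Cre is named for, stood at 2005 CPM (1949.5 to 2062) in members, 486 CPM (441 to 534) in stellate cells and 300.3 CPM (293 to 307) in mesothelial cells, and Col3a1 (type III collagen) at 4328 CPM (4246 to 4411), 1221 CPM (1149 to 1295) and 999 CPM (987 to 1012). Col6a3 (a beaded-filament collagen) stood at 925, 337 and 22.8 CPM, Col12a1 (a fibril-associated collagen) at 60.96, 4.46 and 3.41, and the crosslinking enzyme Lox at 100.1, 12.3 and 31.9. The gene at least 2-fold lower than in stellate cells was the fibril-associated collagen Col14a1, at 654 CPM in members against 1838 in stellate cells.

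The promoters of Dpt, the gene that most of the members were chosen by, and of Col1a2 and Col3a1, a pair of collagen genes that were higher in members together, are printed for reference, each as the 250 bases before the annotated start (RefSeq, GRCm38.p6), 5′ to 3′ on the gene's strand, at chr1:164796413-164796662, chr6:4505368-4505617 and chr1:45311288-45311537, all on the plus strand. Capitals mark matches to CCAAT or TATAA on either strand (ATTGG and TTATA on the other strand).
Dpt: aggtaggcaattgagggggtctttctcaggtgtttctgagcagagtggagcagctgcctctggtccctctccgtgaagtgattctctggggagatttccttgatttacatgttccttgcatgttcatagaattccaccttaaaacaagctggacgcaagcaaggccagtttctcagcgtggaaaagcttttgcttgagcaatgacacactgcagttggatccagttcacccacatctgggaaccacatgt
Col1a2: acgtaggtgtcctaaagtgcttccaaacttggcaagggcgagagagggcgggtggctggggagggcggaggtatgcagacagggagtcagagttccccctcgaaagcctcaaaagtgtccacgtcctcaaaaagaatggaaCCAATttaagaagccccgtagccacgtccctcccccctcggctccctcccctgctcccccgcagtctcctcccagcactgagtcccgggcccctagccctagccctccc
Col3a1: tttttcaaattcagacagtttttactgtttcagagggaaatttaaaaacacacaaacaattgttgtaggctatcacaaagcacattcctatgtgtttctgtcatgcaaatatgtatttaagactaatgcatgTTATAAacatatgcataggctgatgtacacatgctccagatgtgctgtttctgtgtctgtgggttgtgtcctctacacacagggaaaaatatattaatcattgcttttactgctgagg
The Col1a2 window holds 1 CCAAT, which begins 109 bases before the start. The Col3a1 window holds 2 overlapping TATAA matches, 1 on each strand, that begin 118 and 117 bases before the start, and the Dpt window holds neither motif. Over 32851 promoter windows of this length, 33.85% held CCAAT and 22.78% held TATAA on either strand, so both are common letters. Which stretch of the gene drives the Cre transgene was not stated.

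Elastic fibres are built from elastin on a scaffold of microfibrils. Of 17 genes of this list, 9 were at least 2-fold higher and 0 at least 2-fold lower than in stellate cells, with a median log2 ratio of 1.04. Against mesothelial cells, 10 were higher and 3 lower, with a median of 1.34. Eln (tropoelastin) stood at 581 CPM (552 to 612) in members, 107 CPM (86.7 to 131) in stellate cells and 305 CPM (298 to 312) in mesothelial cells. Emilin1, an elastic fibre glycoprotein, was shared with stellate cells (593 and 788 CPM) and stood at 16.3 CPM in mesothelial cells. Fbln1 (fibulin 1) stood at 178, 22.3 and 436 CPM, above stellate and below mesothelial cells, and Fbln2, with 0 UMIs in stellate cells, at 115 and 145 CPM in members and mesothelial cells.

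The small leucine-rich proteoglycans, which coat collagen fibrils, had 3 of 10 genes higher and 1 lower than in stellate cells, with a median of 0.61, and 5 higher and 1 lower than in mesothelial cells, with a median of 1.17. Fmod, Ogn and Ecm2 were higher and Prelp lower than in stellate cells. Fmod (fibromodulin) stood at 224 CPM in members, 12.3 in stellate and 212 in mesothelial cells, Ogn (osteoglycin) at 306, 73.6 and 593, and Prelp at 907, 1847 and 289. The ratio of Prelp to stellate cells was -0.90 with the Dpt and Mfap4 minimum at 10, under 2-fold. Aspn (asporin), at 24.6 CPM, came from 8 members. Basement membrane genes were near the share of all genes, of which 4.58% were higher and 3.37% lower than in stellate cells. Of 14 in the list, 1, Col15a1, was at least 2-fold higher, at 201 against 43.5 CPM, and 0 were lower. Against mesothelial cells 6 were higher and 2 lower, with a median of 0.60. The higher ones included the collagen IV genes Col4a1 and Col4a2, at 799.8 and 456 CPM in members against 72.9 and 33.9, and the laminin gene Lama2, at 132 against 2.04.

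Many genes of matrix proteolysis and its inhibitors stood above both classes. Of 18 genes at 10 CPM among 22, 11 were at least 2-fold higher and 0 at least 2-fold lower than in stellate cells, with a median log2 ratio of 1.23. Against mesothelial cells, 13 of 18 were higher and 0 lower, with a median of 1.35. The gelatinase Mmp2 stood at 644 CPM (613 to 677) in members, 269.8 CPM (237 to 306) in stellate cells and 7.40 CPM (6.35 to 8.57) in mesothelial cells, the aggrecanase Adamts5 at 567, 254 and 99.5 CPM, and the plasminogen activator Plat at 268, 68 and 92.9. As a mean of per-cell CPM the ratio of Adamts5 to stellate cells was 0.75, under 2-fold. Among the inhibitors, Serpine2 was at 224, 51.3 and 2.41 CPM, Timp1 at 154, 18.95 and 191, and Serpinf1 (pigment epithelium-derived factor) at 196, 2.23 and 34.5. The genes Mmp9, Mmp13 and Timp4 had 0 UMIs in members.

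Some contractile genes were concentrated in few members. Of 15 smooth muscle and pericyte genes at 10 CPM among 17, 5 were at least 2-fold higher and 3 at least 2-fold lower than in stellate cells, with a median log2 ratio of 0.12. Acta2, the smooth muscle actin that marks myofibroblasts, stood at 569 CPM (539.5 to 599) in members, 82.5 CPM (64.8 to 104) in stellate cells and 72.8 CPM (69.4 to 76.3) in mesothelial cells, but was counted in 68 of 201 members, and 23.4% of its UMIs lay in 1. Of the UMIs of Actg2, another smooth muscle actin, 96% lay in 1 of 2 members; without that member its ratio to stellate cells was -0.21 instead of 2.29. The pericyte genes Abcc9, Kcnj8 and Mcam were lower than in stellate cells, at 274 against 921, 49.7 against 254 and 3.23 against 47.9 CPM. Mylk (myosin light chain kinase) was shared, at 821 and 634 CPM, and stood at 15.8 CPM in mesothelial cells.

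Signalling genes went both ways. Of 22 growth factor genes at 10 CPM among 29, 6 were higher and 6 lower than in stellate cells. Igf1 (insulin-like growth factor) stood at 198 CPM (181 to 216) in members, 28.98 CPM (18.9 to 42.5) in stellate cells and 43.8 CPM (41.2 to 46.5) in mesothelial cells. Sfrp1, a secreted Wnt antagonist, had 0 UMIs in stellate cells and was at least 19.7-fold higher in members, at 65.8 CPM. Sfrp2, a related antagonist, was also at 0 in stellate cells, but its 46.8 CPM came from 14 members. Hgf, the hepatocyte growth factor made by stellate cells, was lower, at 148 CPM (133 to 164) against 683 CPM (630.3 to 739.6), and Gdf10, a relative of the bone morphogenetic proteins, was shared at 205 and 253 CPM. Rspo1, a Wnt enhancer of mesothelial cells, stood at 19.8 CPM in members and 725 in mesothelial cells.

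Most receptors lay within 2-fold of stellate cells, as did most genes: over all genes, 4.58% were higher and 3.37% lower. Of 14 receptor genes, 2 were higher, 1 lower and 11 within 2-fold of stellate cells, with a median log2 ratio of 0.10. The PDGF receptors Pdgfra and Pdgfrb stood at 352 and 611 CPM in members, 375 and 424 in stellate cells and 29.6 and 10.6 in mesothelial cells. Eng (endoglin) stood at 457, 739 and 10.6 CPM, and Acvrl1, its signalling partner, at 41.99, 4.46 and 26.4.

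Among TGF-beta ligands, Tgfb2 and Tgfb3 were higher than in stellate cells, at 142 against 40.1 and 67.8 against 18.95 CPM, while Tgfb1 was lower, at 31.1 against 75.8. Of 13 ligand and response genes, 5 were higher and 2, Tgfb1 and Tgfbi, lower than in stellate cells. Tgfbi, a TGF-beta-induced matrix protein, stood at 516 CPM (488 to 545) in members, 3073 CPM (2959.7 to 3190.3) in stellate cells and 29.6 CPM (27.4 to 31.8) in mesothelial cells, and Thbs1 (thrombospondin, which activates latent TGF-beta) at 219.6, 56.9 and 32.1 CPM. Ctgf was shared with stellate cells, at 669.8 and 463 CPM, with 39.5 in mesothelial cells. Postn (periostin) stood at 151 CPM and came from 41 members.

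Of 14 chemokine and cytokine genes at 10 CPM among 18 found, 3 were higher and 4 lower than in stellate cells. The lower ones included the monocyte chemokine Ccl2, at 39.97 against 241 CPM, and Cxcl14, at 27.9 against 152. Cxcl10, induced by interferon, was lower than in both classes, at 31.9 CPM against 142 and 113. The higher ones were Cxcl2, Cxcl13 and Ccl11. The B cell chemokine Cxcl13 stood at 64.6 CPM against 2.23 and was counted in 16 members, and the eosinophil chemokine Ccl11 stood at 45.6 against 1.11 CPM and was counted in 8.

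Insulin-like growth factor binding proteins, which hold the hormone in the tissue, went both ways against the mesothelium. Igfbp7 was higher in members, at 9849 CPM (9726 to 9973) against 1172 CPM (1158 to 1186), and so were Igfbp3, at 261 against 93.5 CPM, and Igfbp4, at 2025 against 793 CPM. Without the members that carried stellate genes, the ratio of Igfbp3 was 0.55 in place of 1.39. Igfbp5 and Igfbp6 were lower, at 128 CPM (115 to 143) against 8651 CPM (8614 to 8688) and 341 CPM (319 to 365) against 4470.5 CPM (4444 to 4497). Against stellate cells Igfbp4 and Igfbp6 were higher, at 2025 against 672 and 341 against 84.7 CPM. Of 12 complement and acute phase genes at 10 CPM among 14, 5 were higher and 0 lower than in stellate cells, and 0 were higher and 5 lower than in mesothelial cells. C3, the central complement protein, stood at 1628 CPM (1578 to 1679) in members, 426 CPM (384 to 471) in stellate cells and 8959 CPM (8921 to 8997) in mesothelial cells, and C4b at 1683, 642 and 1716 CPM. The acute phase gene Saa3 had 40.99% of its UMIs in 1 member; its ratio to stellate cells was 3.11, and 2.42 without that member.

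Lipoprotein lipase, encoded by Lpl, stood at 1186 CPM (1143 to 1229) in members, 385 CPM (345 to 427) in stellate cells and 22.9 CPM (21.03 to 24.9) in mesothelial cells, and was the gene of 14 tested for retinoid and lipid handling that was at least 2-fold higher than in stellate cells. Lrat and Plin2, a lipid droplet coat protein, were the lower ones, with Plin2 at 89.2 against 198 CPM. These counts of the list are small, and over all genes 4.58% were higher and 3.37% lower than in stellate cells. Fabp5, a fatty acid carrier, and Aldh1a2, a retinoic acid-making enzyme, were lower than in mesothelial cells, at 60.96 against 377 and 14.1 against 92.4 CPM.

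Among mesenchymal transcription factors, Tcf21, a helix-loop-helix factor of stellate cells and fibroblasts, stood at 647 CPM (616 to 679.6) in members, 699 CPM (645 to 756) in stellate cells and 6.15 CPM (5.20 to 7.23) in mesothelial cells. Prrx1, a homeodomain factor of fibroblasts, was higher than in both classes, at 118 CPM (105 to 133), 15.6 CPM (8.53 to 26.2) and 11.1 CPM (9.77 to 12.5). Wt1, known from the mesothelium and the mesenchyme that arises from it, stood at 275 CPM (255 to 296) in members, 63.5 CPM (48.1 to 82.3) in stellate cells and 383 CPM (376 to 391) in mesothelial cells, so members were within 2-fold of mesothelial cells in this gene while the epithelial mesothelial genes were far apart. The stellate factor Lhx2 was lower than in stellate cells, at 126 against 398 CPM. Of 22 factors at 10 CPM among 25, 6 were higher and 4 lower than in stellate cells, and 13 of 21 were higher and 2 lower than in mesothelial cells.

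**Figure D4:**
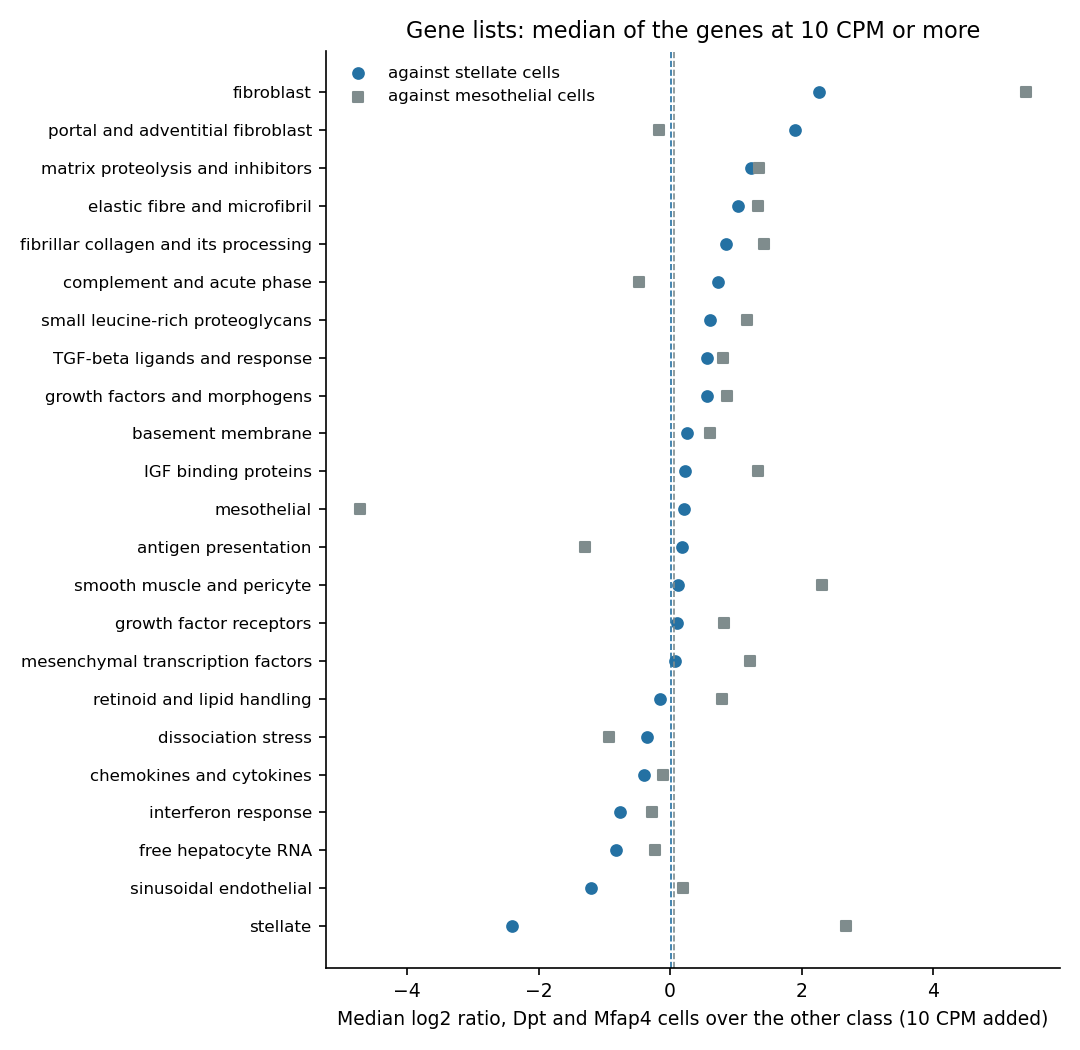
Median log2 ratio of the tested genes of 23 lists, members over stellate cells (circles) and members over mesothelial cells (squares), with 10 CPM added to both levels; dashed lines mark the median of all genes, 0.0074 and 0.065. The lists of matrix proteolysis, elastic fibre and fibrillar collagen genes lie right of both lines, the stellate list lies left for stellate and right for mesothelial cells, and the mesothelial list lies far left for mesothelial cells.

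Most markers of other cell types were low in members. Of 16 mesothelial genes, 15 were at least 2-fold lower than in mesothelial cells, with Wt1 as the exception, but the rule itself caps Msln, Upk3b, Nkain4 and Lrrn4 in members, so these 4 are no finding. The keratin Krt19, which the rule did not use, stood at 20.2 against 1302 CPM. The 10 sinusoidal endothelial genes, of which the rule caps Clec4g, Stab2 and Ptprb, lay between 2.02 and 23.8 CPM. The 13 leukocyte genes lay between 0 and 21.8 CPM in the summed counts, with Cd3d, Cd3e, Cd3g, Cd79b and Ms4a1 at 0. In single members the sum of the leukocyte genes had a median of 0 but a highest value of 207 per 10000. Among 5 Schwann and neural genes 3 were at 0, Sox10 and Cdh19 among them. Of 8 proliferation genes, Top2a, Ccnb1 and Cenpf were at 0 and Mki67 at 0.404 CPM.

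Of 8 antigen presentation genes, H2-Ab1 and Cd74 were higher and H2-K1 and H2-D1 lower than in stellate cells, and 0 were higher and 4 lower than in mesothelial cells. The class I genes H2-K1 and H2-D1 stood at 1472 and 1992 CPM in members against 3041 and 4586 in stellate cells. The class II genes H2-Aa, H2-Ab1 and H2-Eb1 and the invariant chain Cd74 were at 22.6, 37.5, 23.8 and 49.3 CPM against 124, 161, 140.2 and 763 in mesothelial cells, and H2-Ab1 and Cd74 at 13.4 and 17.8 in stellate cells. Both came under 2-fold over stellate cells without the member that held most of their UMIs. Of 9 interferon response genes tested, 3 were at least 2-fold lower than in stellate cells and 0 were higher. The lower ones included Isg15, at 39.97 against 104 CPM, and Ifit3, at 30.3 against 117. Of 14 genes that respond to tissue dissociation, 1 was higher and 1 lower than in stellate cells. These were Atf3, at 201 against 90.3 CPM, and Hspa1a, at 195 against 548. Both counts were near the share of all genes, of which 4.58% were higher and 3.37% lower. Atf3 and Ecm2 also came under 2-fold over stellate cells without 1 member. Against mesothelial cells 0 were higher and 6 lower.

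The 12 genes furthest below both classes were 9930111J21Rik2, Bcr, Ctdspl, Cxcl10, Esam, Fam84a, Itgb3, Kdr, Mgll, Rassf3, Spint2 and Tmem108. Esam, a junction protein of vessels, stood at 2.42 CPM in members, 78.03 in stellate and 155 in mesothelial cells. Kdr, the receptor for vascular endothelial growth factor, stood at 9.29, 54.6 and 139 CPM, the integrin chain Itgb3 at 1.21, 60.2 and 23.7, and the protease inhibitor Spint2 at 5.65, 41.2 and 209. With the sinusoidal limit at 5 per 10000 in place of 20, the ratio of Kdr to stellate cells was -0.10 in place of -1.74, which ends that call.

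Members were not uniform. Kept cells were clustered without the genes of the rule, at Leiden resolution 1, and 184 of the 201 members fell into 3 of 21 clusters: 87 (43.3%, 36.3 to 50.4) in cluster 6, 71 (35.3%, 28.7 to 42.4) in cluster 8 and 26 (12.9%, 8.63 to 18.4) in cluster 15. A further 12 lay in cluster 9, whose median of 1650 UMIs was low, 3 in cluster 16 and 1 each in clusters 5 and 10. Cluster 9 was mixed, with 31 mesothelial and 3 stellate cells, and 25 of its 74 cells were called doublets. Among all 201 members, 3 were called. At resolution 0.5, 184 members (91.5%) lay in 1 cluster together with 27 stellate cells. The differences between clusters below come from the genes that made the clusters and are descriptions, and the genes were chosen by their values.

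Cluster 6 was the part nearest to stellate cells. It held 23 stellate cells beside its 87 members, and 37 of the 41 members at or above the stellate minimum, with a median stellate sum of 12.5 per 10000. Its members had 493 CPM (455 to 533) of Reln, 653 CPM (609 to 699) of Colec11, 383 CPM (349 to 418) of Rspo3 and 3755 CPM (3649 to 3864) of Cxcl12. In cluster 8 these were 79.4, 132, 80.7 and 1326 CPM, and in cluster 15 12.5, 234, 67.4 and 1287 CPM. Cyp2e1 was at 184 CPM (161 to 209) in cluster 6, 5.38 CPM (1.47 to 13.8) in cluster 8 and 169.6 CPM (132 to 215) in cluster 15, and Igfbp3 at 363, 14.8 and 437 CPM, so both genes were low in cluster 8.

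Cluster 8 was made up almost wholly of members (71 of 78 cells) and had a median stellate sum of 0.792 per 10000. Mfap4 stood at 1062 CPM (989 to 1139) there against 396 CPM (362 to 432) in cluster 6 and 531 CPM (462 to 608) in cluster 15, and Tcf21 at 981, 616 and 187 CPM. The adhesion molecule Alcam was at 3157 CPM (3031 to 3288) in cluster 8, 1477 CPM (1411 to 1546) in cluster 6 and 344 CPM (289 to 407) in cluster 15. Igfbp6 (638 against 45.96 CPM), Fxyd6 (417 against 35.7) and the fibrinogen-like protein Fgl2 (619 against 86.4) were higher in cluster 8 than in cluster 6.

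Some portal and adventitial fibroblast markers were highest in cluster 15. The summed level of the 12 genes of that list was 1999 CPM in cluster 6, 2301 in cluster 8 and 5097 in cluster 15. Others of the list were spread over the clusters: Eln stood at 549.9, 568 and 761 CPM in clusters 6, 8 and 15, and Gas1, a hedgehog coreceptor, at 287, 939 and 506. Over all members, 9 of 10 tested genes of that list were at least 2-fold higher than in stellate cells, with a median of 1.90, but 2 of 12 were higher and 3 lower than in mesothelial cells, with a median of -0.17. Clec3b (tetranectin) stood at 763 CPM (680.2 to 854) in cluster 15, 18.2 CPM in cluster 6 and 6.73 in cluster 8. Fbln2 stood at 501, 33.3 and 17.5 CPM, Pi16 at 107, 0 and 0, and Pcolce2 at 292, 7.13 and 2.69. In cluster 15, Fbln2 was counted in 16 of 26 members, Pi16 in 6 and Pcolce2 in 18. The member that held most had 23.2% of the Clec3b UMIs, 29.4% of Fbln2, 34.9% of Pi16 and 14.5% of Pcolce2. Thy1, a portal fibroblast marker, was counted in 5 members. Ly6a, a stem cell antigen of adventitial cells, was at 1025 CPM in cluster 15, 343 in cluster 6 and 14.8 in cluster 8. Cluster 15 was itself mixed: the 26 members included 3 at or above the stellate minimum, its 36 cells drew 3 doublet calls, and 15 of the 26 members held a Clec3b UMI, 13 a Postn UMI and 4 an Rgs5 UMI.

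**Figure D5:**
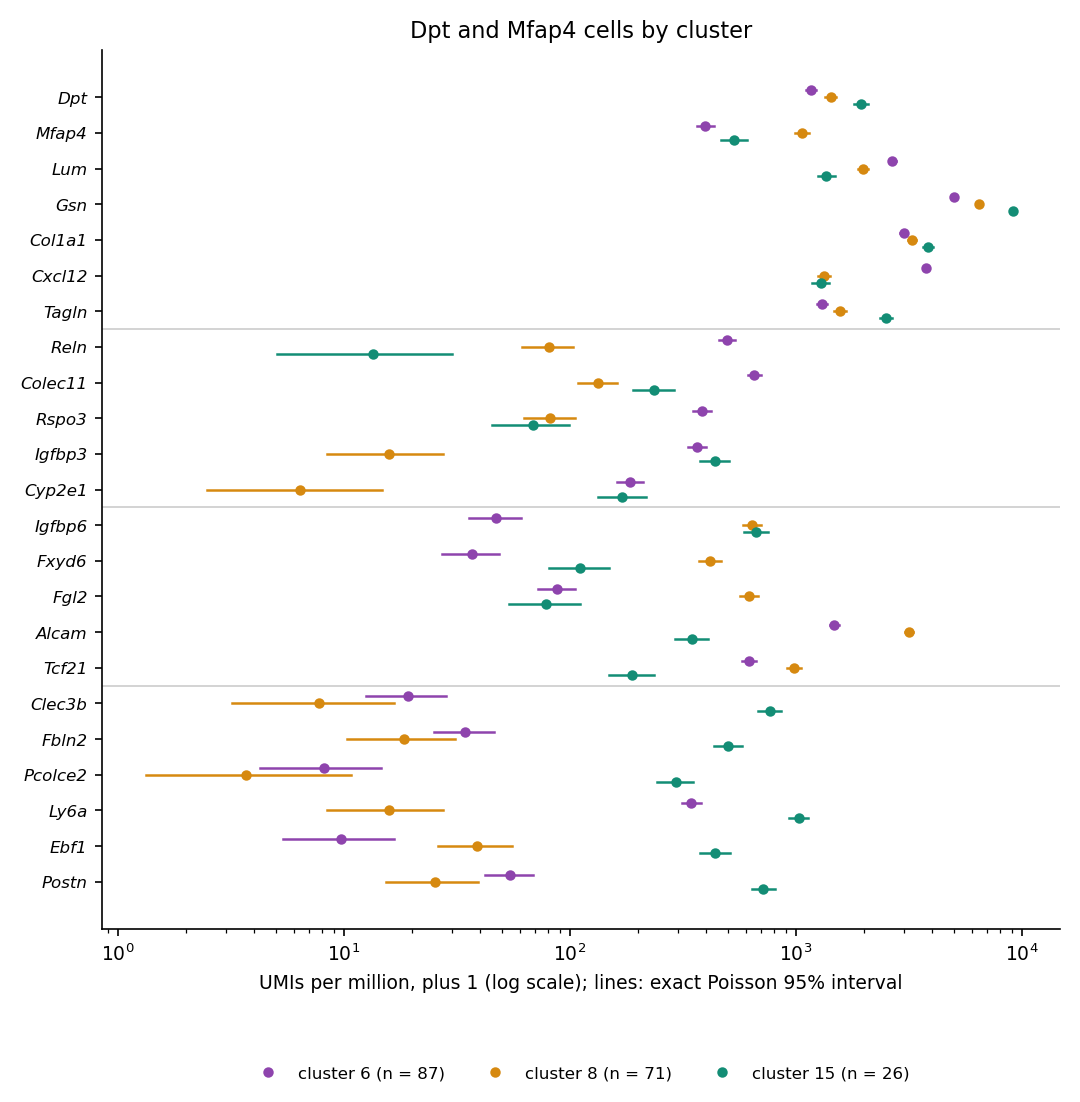
Summed levels of 23 genes in the members of cluster 6 (87 cells), cluster 8 (71) and cluster 15 (26), in CPM plus 1 on a log scale, with exact Poisson 95% intervals; grey rules separate the markers from genes high in clusters 6, 8 and 15. The markers lie within about 1 decade of each other in the 3 clusters, while Reln is highest in cluster 6, Fxyd6 and Fgl2 in cluster 8, and Clec3b and Fbln2 in cluster 15.

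The same rule found 1 of 2818 kept cells in the negative recovery library and 0 of 5271 in the negative injury library, where 3 counts of the total, taken as the limit that a count of 0 allows, come to 0.0569% and the exact Clopper-Pearson bound is 0.0700%. The fractions are labelled positive and negative, and how they were parted was not given. Members could not be compared between injury and recovery, because the counts of the positive injury fraction were not analysed here. In the negative injury library, 41 stellate cells held 985 CPM (897 to 1080.2) of Col1a1 and 10.8 CPM (3.52 to 25.3) of Dpt, and in the negative recovery library the 6 stellate cells held 158 CPM (81.8 to 276) of Col1a1 and 0 Dpt UMIs. The levels of Col1a1 in members, 3165 CPM, and of Dpt, 1365 CPM, are from another fraction.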

How the data were processed

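Single-cell libraries were prepared with a 10x Genomics 3' protocol from Nycodenz-purified liver cells, per the labels' protocols. The deposited values are counts: the number of UMIs per gene and cell barcode, and the authors deposited them without normalization, per the file headers. Build mm10 and featureCounts 1.6.2 are named in the submitters' processing notes. For the aligner and the cell calling, a name was not given in the sources used here. tdTomato was not among the 31053 features. Replicate p-values were not computed, since each group has 1 library.

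Barcodes with at least 1000 UMIs, 300 genes and at most 20% mitochondrial UMIs were kept. The members, the lists and the comparison classes were chosen with earlier results of these data known. Counts were summed per class, divided by the class total and compared as log2 ratios with 10 CPM added, over genes at 10 CPM or more in either class, with a 2-fold limit. The calculation was tested on simulated counts. Cells were clustered on 1985 variable genes with 30 principal components and 15 neighbours (scanpy 1.11.5, leidenalg 0.10.2), and doublets were scored with Scrublet, which called 108 of 2488 barcodes. Depth per library was 33442403, 27816768 and 49993127 UMIs for positive recovery, negative recovery and negative injury, and each pair of the 4 libraries shared 3 to 9 barcodes.

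Genes were named by a rule: the markers, up to 4 members of each list with the largest ratio in each comparison, the 12 genes furthest above and below both classes, and the 10 furthest above and below stellate cells. Bambi, Col14a1, Col3a1, Cygb, Des, Mki67, Pi16, Tgfb1, Thy1, Alcam, Fgl2, Il34, Loxl1, Spon2, Serpina1b, Ahsg and the genes named only as at 0 or as counted in a list were chosen after their values were seen. A few genes that the rule names are not reported here. Coordinates are from GENCODE M21 (GRCm38), in which 30934 features were found, and promoters from RefSeq (GRCm38.p6). Alternatives to the thresholds, scaling, pseudocount and cells are given in the closing section.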

Additional observations from a re-analysis of the deposited data

How the results depend on the processing

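The counts of genes depended most on the value added before the log2 ratio, since it sets how far low genes can move. With 50 CPM added, 136 genes were higher and 119 lower than in stellate cells, and 349 higher and 297 lower than in mesothelial cells. With 1 CPM added, 798 were higher and 546 lower than in stellate cells. Against the stellate cells of cluster 11, chosen after seeing the data, 659 were higher. TMM scaling lowered the ratios to mesothelial cells, by 0.15 over all genes, and gave 788 higher and 843 lower; 433 were higher and 315 lower than in stellate cells. The share of members in their main cluster, 43.3%, was 91.5% at Leiden resolution 0.5. Actg2 against stellate cells was at -0.0856 with the Dpt and Mfap4 minimum at 10, and at -0.21 without 1 member, H2-Ab1 against stellate cells at -0.0168 with that minimum, and Angptl6 against mesothelial cells at -0.0270 without the members that carried stellate genes. Of 245 ratios of named genes past 2-fold, 50 came under it with 50 CPM added. Kdr against stellate cells came under it with the sinusoidal limit at 5. The number of members ran from 160, without those that carried stellate genes, to 222, with the minimum at 3. Angptl6 is part of the sum by which those members were left out, so a lower value was built into that choice. For the remaining reversed values, other than the one without 1 member, the cause was not tested. No paired analysis was possible because each group has 1 library. Depth limits genes with few UMIs, and intervals do not cover differences between mice.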
